A study of Mus musculus with 10 samples.

Results

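The Nr4a family of orphan nuclear receptors, Nr4a1 (also called Nur77 or NGFI-B), Nr4a2 (Nurr1) and Nr4a3 (Nor1), was followed across hippocampal arrays of mice that did or did not carry A-CREB. Its members were taken as every probe set that the annotation of the array platform assigns to one of the 3 genes, which gave 10 of the 45037 probe sets that are not controls: 1 for Nr4a1, 6 for Nr4a2 and 3 for Nr4a3. A probe set is a group of short oligonucleotides whose combined brightness is reported as 1 signal for a transcript. Of the 10, 7 were bright enough to be tested, 1 for Nr4a1, 4 for Nr4a2 and 2 for Nr4a3. The probe sets of 1 gene are assigned to the same gene and read on the same arrays, so they are not replicates of each other. Which of the gene's transcripts each one reads was not tested.

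Total hippocampal RNA of 3-week-old mice had been hybridised to 10 Affymetrix mouse genome arrays, in 5 groups of 2 arrays. The A-CREB mice, labelled TetO-A-CREB-95 on a C57BL6 F1/J background, received saline, 14 mg/kg kainate or 18 mg/kg kainate, and the wild-type mice, labelled C57BL6 F1/J on those arrays that state a strain, received 14 mg/kg kainate or saline. A-CREB is a dominant-negative inhibitor that binds CREB, the cAMP-responsive transcription factor, and keeps it from DNA. Kainate is a glutamate receptor agonist that provokes seizures and with them a burst of activity-dependent transcription. In all, 20 A-CREB and 14 wild-type mice entered the pools, with 3 to 4 mice to an array, so single mice were not measured. Each SD below is the spread of the 2 pools of a group. Each SE and interval comes from a linear model shared by all 10 arrays. For a given probe set, groups with a wide spread and groups with a narrow one therefore get the same SE. The TetO label means that the transgene needs a tetracycline-controlled transactivator. The sources used here do not give the line that supplied it, which hippocampal cells expressed A-CREB, or how long after the injection the tissue was taken. The 18 mg/kg dose had no wild-type group.

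The Nr4a genes are immediate-early genes: their transcription starts within minutes of neuronal activity, growth factors or cAMP, and needs no new protein. Their products are nuclear receptors whose ligand pocket is filled by side chains, so that their activity depends mainly on how much protein is made. They bind DNA as monomers at the NBRE element, as dimers at related repeats, and in the case of Nr4a1 and Nr4a2 also with the retinoid X receptors. In the hippocampus they act in memory consolidation, and Nr4a2 is needed for midbrain dopamine neurons. CREB, bound at cAMP response elements (CREs) or at their core TGACG alone, is known to drive all 3 genes, and Nr4a1 is also driven by MEF2 factors. The comparison of the kainate response in A-CREB mice with that in wild-type mice asks how far the induction of such genes changes when CREB is inhibited.

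The stretches before the transcription start sites are shown because CREB is known to act there. RefSeq windows of assembly GRCm38.p6, cut to the 250 bases upstream of an annotated start, were matched for 3 of 3 genes. The Nr4a1 window is chr15:101266596-101266845 on the plus strand, inside the annotated gene (101253902 to 101274795), which has several starts. The Nr4a2 window is chr2:57124004-57124253 on the minus strand, directly before the gene (57106830 to 57124003). The Nr4a3 window is chr4:48045055-48045304 on the plus strand, and the annotated gene (48045078 to 48086447) begins within it. Each is printed 5′ to 3′ on the gene's strand, with CRE cores in capitals (TGACG on the gene's strand, or its reverse complement where the CRE core lies on the other strand):
Nr4a1: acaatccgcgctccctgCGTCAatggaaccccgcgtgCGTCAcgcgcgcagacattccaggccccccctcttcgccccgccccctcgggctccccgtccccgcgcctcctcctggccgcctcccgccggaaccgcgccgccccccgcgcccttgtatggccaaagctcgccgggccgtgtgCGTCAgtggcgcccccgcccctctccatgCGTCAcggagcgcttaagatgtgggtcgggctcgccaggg
Nr4a2: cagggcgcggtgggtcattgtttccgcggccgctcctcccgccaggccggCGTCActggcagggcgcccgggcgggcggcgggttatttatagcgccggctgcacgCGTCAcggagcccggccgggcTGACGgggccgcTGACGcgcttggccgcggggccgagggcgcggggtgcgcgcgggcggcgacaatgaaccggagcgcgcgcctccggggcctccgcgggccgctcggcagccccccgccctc
Nr4a3: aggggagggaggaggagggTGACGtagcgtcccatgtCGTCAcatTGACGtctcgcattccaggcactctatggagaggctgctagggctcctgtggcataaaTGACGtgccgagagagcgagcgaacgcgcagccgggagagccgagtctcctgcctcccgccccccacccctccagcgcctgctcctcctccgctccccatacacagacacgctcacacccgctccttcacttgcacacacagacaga

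Each window held 4 CRE cores. In Nr4a1 they lay on the other strand, with the 5′-most at positions -233 to -229 and the one nearest to the start at -40 to -36, counted from -1 as the base just before the start. Nr4a2 had 2 on each strand, between -200 and -107. Nr4a3 had 3 on its own strand and 1 on the other, between -231 and -143. Of 32851 windows of the same length in RefSeq, belonging to 27025 genes, 17.765% held at least 1 CRE core and 0.137% held at least 4, where both strands were searched and a full CRE counts as a CRE core on each strand. The full CRE (TGACGTCA) was in 0 of the 3 windows, against 1.546% of all windows, and the NBRE (AAAGGTCA), the element that the Nr4a proteins themselves bind, was in 0 of the 3, against 1.336%. These are letters in a window and not measured binding.

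**Figure D1:**
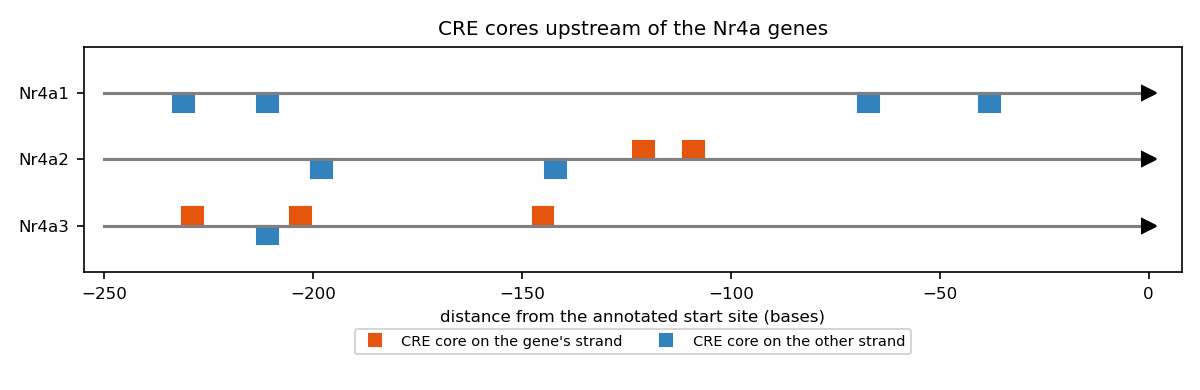
Positions of CRE cores (TGACG) in the 250 bases upstream of an annotated start of Nr4a1, Nr4a2 and Nr4a3, with the distance from the start in bases on the horizontal axis. Orange boxes stand for CRE cores on the gene's strand and blue boxes for those on the other strand, and each gene shows 4.

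The arrays carried the hippocampal neuron markers Prox1, Dsp, C1ql2, Wfs1, Neurod6, Grik4 and Fibcd1, with a summed signal from 7628 to 10896, lowest on the A-CREB kainate arrays (7628 to 9219). Some arrays stood apart. The arrays numbered 1 had median signals of 94.9 to 106 and those numbered 2 of 135 to 152, and 9033 of 27022 tested probe sets (33.4%) differed between the numbers. What the numbers mark is not stated in the labels, but 10 of 10 arrays correlated best with an array of their own number, so each test was also run with the replicate number as a block. Wild-type kainate replicate 2 had a summed signal of 10687 for 5 striatum markers, against 1887 to 4495 on the other arrays. For 5 microglia markers the sum was 9028 to 10762 on A-CREB kainate arrays and 6826 and 6949.8 on wild-type kainate arrays. After saline it was 7381 and 9171 in A-CREB and 7358 and 8755 in wild type. For 5 choroid plexus markers it was 38354 to 43019.9 on kainate arrays numbered 1 and 23915 to 29429 on those numbered 2. The part of these sums in the results below was not tested. The summed signal of 6 markers of subplate, layer 6b and claustrum, where Nr4a2 is also expressed, was 5617 to 7183 on kainate arrays. On saline arrays it was 4243 to 5506, which does not overlap. Taken singly, 1.57% of all tested probe sets had all kainate arrays above all saline arrays, and the share among sums of markers was not counted. Over the 10 arrays Ccn2 ran from 872 to 2633, Lxn from 2466 to 3412, Cplx3 from 205 to 581 and Moxd1 from 215 to 502. Nxph4 ran from 43.6 to 470, and Ntng2, too dim to be tested, from 10.1 to 81.6. Ccn2 had the widest range of the 6 in signal. Which of the 6 made the sums differ was not tested, and neither was the part of the sum in the results below. More of this tissue and a kainate response of a marker cannot be told apart in the sum. In such tissue RNA, fewer cells of a type and less RNA per cell cannot be told apart.

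Kainate at 14 mg/kg raised the signal of all 3 Nr4a genes, each in at least 1 probe set. The mean response of both genotypes was 3.31-fold to 4.11-fold in the 6 probe sets that passed, and 1.82-fold in the dim Nr4a3 1421080_at, which did not. No difference between A-CREB and wild-type mice passed the test for any of their probe sets. For 6 of the 7 tested probe sets, all 6 kainate arrays lay above all 4 saline arrays, while 1.57% of all tested probe sets did so. The mean of the A-CREB and wild-type responses at 14 mg/kg passed the threshold for 6 of the 7, as higher after kainate (limma with Benjamini-Hochberg adjustment over 27022 probe sets, threshold 0.05), while 0.411% of all probe sets did so. With the replicate number as a block the same comparison also gave 6 of 7, and 1.19% of all. The responses taken 1 group at a time rest on 2 arrays against 2, and fewer passed: 2 of 7 for A-CREB at 14 mg/kg (0.174% of all probe sets), 0 of 7 for A-CREB at 18 mg/kg (0.0703%) and 1 of 7 for wild type (0.0629%). With the block these counts were 6 (0.677%), 5 (0.352%) and 6 (0.315%). At an unadjusted p under 0.05 in limma each of the 3 responses had 6 of 7. Of all 27022 probe sets, 1034 did so for A-CREB at 14 mg/kg, 670 for A-CREB at 18 mg/kg and 729 for wild type. With the block these counts over all probe sets were 2581, 2138 and 2103. Having 2 arrays a group limits how precise any of these values can be.

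**Figure D2:**
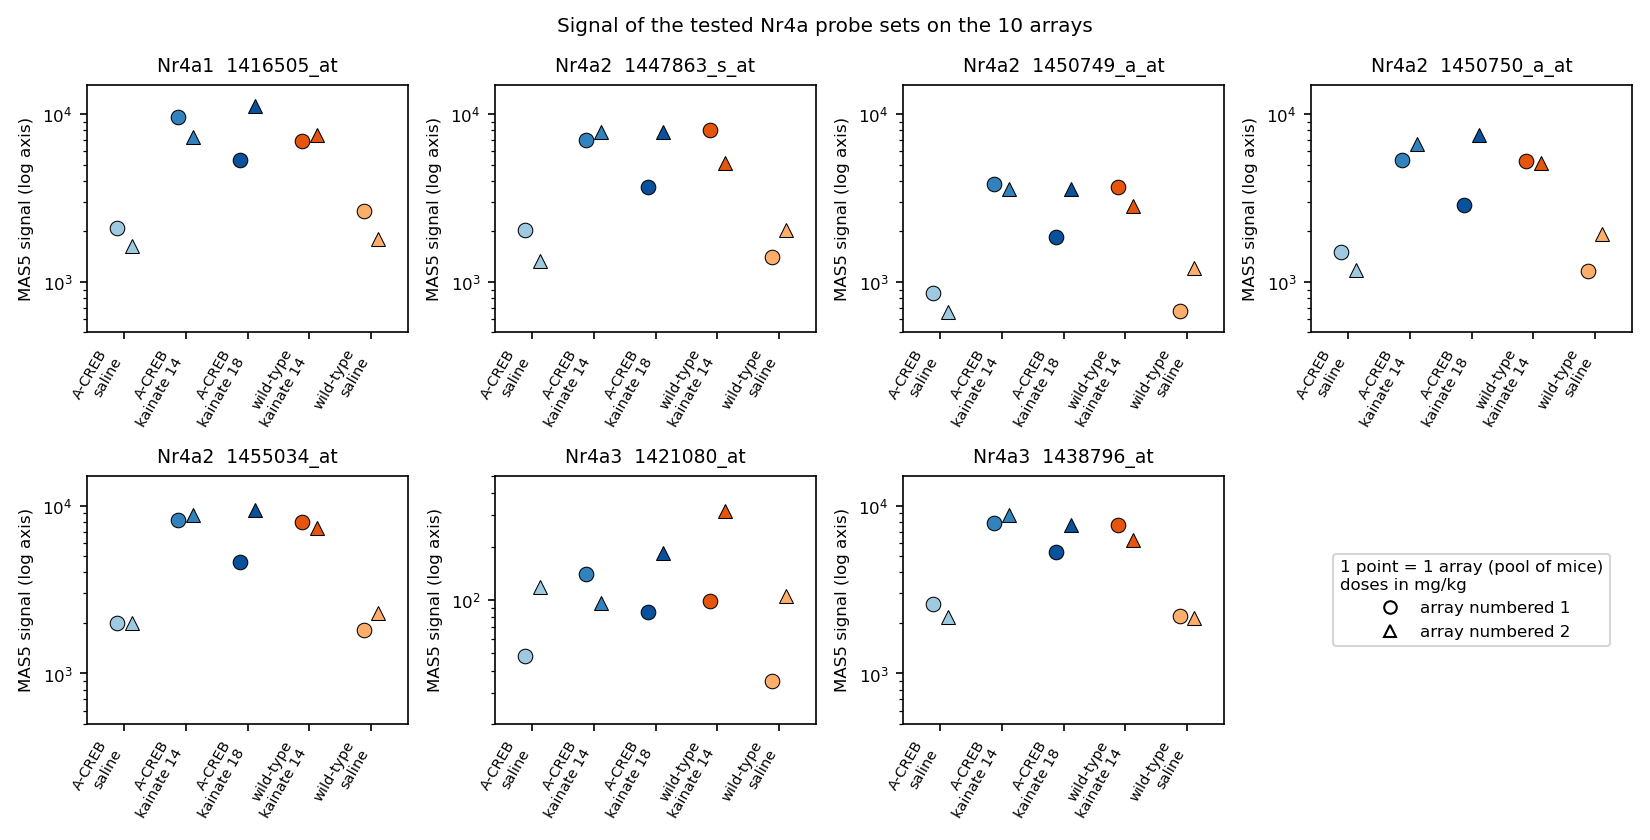
MAS5 signal on a log axis for the 7 tested Nr4a probe sets on each of the 10 arrays, with groups along the horizontal axis, circles for arrays numbered 1 and triangles for arrays numbered 2. In 6 panels all kainate points lie above all saline points, and in the panel of Nr4a3 1421080_at, which has its own lower range, the groups overlap.

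Nr4a1, a receptor that acts in neuronal plasticity and in the death of T cells, was read by 1416505_at. Its signal in A-CREB mice was 2098 and 1644 after saline, 9600.4 and 7292 at 14 mg/kg, and 5291 and 11169 at 18 mg/kg. In wild-type mice it was 6943 and 7488 after kainate, against 2634 and 1796 after saline. Kainate and saline arrays did not overlap in either genotype, and the 2 arrays at 18 mg/kg spread more widely than those of any other group, with replicate 2 at 2.11 times replicate 1. By group mean the order was A-CREB kainate 14 mg/kg at 8446 ± 1632, A-CREB kainate 18 mg/kg at 8229.9 ± 4156, wild-type kainate at 7216 ± 385, wild-type saline at 2215 ± 592 and A-CREB saline at 1871 ± 321 (SD, n = 2 arrays each). Within the kainate groups and within the saline groups, neighbours in this order differed by less than their spread.

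On the log2 scale, taken as log2(signal + 22), Nr4a1 differed by 2.16 (SE 0.333) between kainate at 14 mg/kg and saline in A-CREB mice, which is 4.46-fold and just missed the threshold (limma adjusted p = 0.0509, and 0.00454 with the replicate block). At 18 mg/kg the difference was 2.04 (SE 0.333, limma adjusted p = 0.0989, and 0.0102 with the block). In wild-type mice it was 1.72 (SE 0.333), or 3.29-fold (limma adjusted p = 0.24, and 0.033 with the block). The mean response at 14 mg/kg, 1.94 (SE 0.235), passed in both fits (adjusted p = 0.0073, and 0.000428 with the block), and it also passed with any 1 array left out. Where each gene was represented by 1 probe set and p was adjusted over 13218 genes, Nr4a1 passed in A-CREB mice at both doses (limma adjusted p = 0.0257 at 14 mg/kg and 0.0498 at 18 mg/kg) but not in wild type (0.14).

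Nr4a2, whose protein maintains dopamine neurons and is induced by activity in hippocampal neurons, was read by 4 tested probe sets. The one used to represent the gene, 1455034_at, had 1992 and 2000.4 in A-CREB saline, 8259 and 8775 in A-CREB at 14 mg/kg and 4614 and 9348 in A-CREB at 18 mg/kg. Wild-type mice had 7977 and 7358 after kainate, against 1825 and 2307 after saline. All kainate arrays were above all saline arrays, the A-CREB saline arrays lay between the wild-type saline arrays, and the lowest kainate value was that of A-CREB at 18 mg/kg, replicate 1. The group means of 1455034_at were 8517 ± 365 in A-CREB kainate 14 mg/kg, 7667 ± 438 in wild-type kainate and 6981 ± 3348 in A-CREB kainate 18 mg/kg, followed by 2066 ± 341 in wild-type saline and 1996 ± 5.74 in A-CREB saline (SD, n = 2 each). The mean of A-CREB at 18 mg/kg was not separable from its neighbours, given its spread.

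The kainate response of 1455034_at was 2.08 (SE 0.283, 4.23-fold) in A-CREB mice at 14 mg/kg and passed (limma adjusted p = 0.0302, and 0.000771 with the block). It missed the threshold without any 1 array of A-CREB saline, A-CREB at 14 mg/kg or wild-type kainate, with a highest adjusted p of 0.289. At 18 mg/kg the difference was 1.71 (SE 0.283, limma adjusted p = 0.0989, and 0.00432 with the block). In wild-type mice it was 1.89 (SE 0.283, 3.70-fold) and did not pass (limma adjusted p = 0.0825), while it passed with the block (0.00266) and where p was adjusted over genes (0.0361). The mean response at 14 mg/kg was 1.99 (SE 0.2, limma adjusted p = 0.00281), and it passed with any 1 array left out.

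The 3 other tested Nr4a2 probe sets gave responses of like size. Probe set 1450749_a_at had 857 and 665 in A-CREB saline, 3822 and 3574 at 14 mg/kg and 1858 and 3588 at 18 mg/kg, and in wild type 3698 and 2821 after kainate, against 668 and 1207 after saline. Probe set 1450750_a_at had 1502 and 1174 in A-CREB saline, 5294 and 6641 at 14 mg/kg and 2858 and 7466 at 18 mg/kg, and in wild type 5238 and 5131 after kainate, against 1155 and 1939.9 after saline. Probe set 1447863_s_at had 2031 and 1331 in A-CREB saline, 7039 and 7833 at 14 mg/kg and 3662 and 7867 at 18 mg/kg, and in wild type 8090.2 and 5104 after kainate, against 1409.7 and 2049 after saline. In all 3 the kainate arrays lay above the saline arrays, replicate 2 of wild-type saline was the highest saline array, and replicate 1 of A-CREB at 18 mg/kg was the lowest kainate array. The kainate response of 1450749_a_at was 2.26 in A-CREB mice at 14 mg/kg and 1.82 in wild type (SE 0.347 each), that of 1450750_a_at was 2.14 and 1.78 (SE 0.401 each), and that of 1447863_s_at was 2.16 and 1.91 (SE 0.376 each). None of these 6 values passed without the block (limma adjusted p up to 0.464, with the lowest just above the threshold), and all 6 passed with it (0.00343 to 0.036). At 18 mg/kg the A-CREB differences were 1.75, 1.78 and 1.69, of which the first 2 passed with the block (0.0298 each) and the last did not (0.0655). The mean response of 1450749_a_at, 2.04, passed (limma adjusted p = 0.0069) and did so with any 1 array left out. Those of 1447863_s_at, 2.03 (adjusted p = 0.0112), and 1450750_a_at, 1.96 (adjusted p = 0.02), also passed, but only in 6 of 10 and 3 of 10 fits with 1 array left out.

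Nr4a3, a receptor that overlaps in function with Nr4a1, had its clearest reading in 1438796_at. The signal was 2585 and 2177 in A-CREB saline, 7827 and 8818 in A-CREB at 14 mg/kg and 5292 and 7688 in A-CREB at 18 mg/kg. In wild-type mice it was 7608 and 6242 after kainate, against 2213 and 2133 after saline. The kainate and saline arrays did not overlap, and this probe set had the smallest SE of the 7. Its group means were 8322 ± 701 in A-CREB kainate 14 mg/kg, 6925 ± 966 in wild-type kainate and 6489.9 ± 1694 in A-CREB kainate 18 mg/kg, then 2381 ± 289 in A-CREB saline and 2173 ± 56.7 in wild-type saline (SD, n = 2 each). The kainate arrays of A-CREB at 14 mg/kg were both above those of wild type, by a margin that did not pass the test given below.

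Nr4a3 1438796_at rose after 14 mg/kg kainate in both genotypes. The response was 1.80 (SE 0.207, 3.48-fold) in A-CREB mice (limma adjusted p = 0.0144, and 0.000641 with the block). It missed the threshold when any 1 array of A-CREB saline or A-CREB at 14 mg/kg was left out, with a highest adjusted p of 0.17. In wild-type mice the response was 1.66 (SE 0.207, 3.15-fold, limma adjusted p = 0.0349, and 0.00175 with the block). This was the 1 member call in wild type, and it passed when either A-CREB array at 18 mg/kg was left out and missed the threshold when any other array was. Over these 10 fits the wild-type response ran from 1.51 to 1.80. At 18 mg/kg the A-CREB difference was 1.42 (SE 0.207, limma adjusted p = 0.0689, and 0.00432 with the block). The mean response at 14 mg/kg, 1.73 (SE 0.146), had an adjusted p of 0.00113 and passed with any 1 array left out.

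The second tested Nr4a3 probe set, 1421080_at, was dim, and its groups overlapped. It had 48.6 and 119 in A-CREB saline, 141 and 96.0 in A-CREB at 14 mg/kg and 85.7 and 183 in A-CREB at 18 mg/kg, and in wild type 98.7 and 319 after kainate, against 35.0 and 106 after saline. It was also the 1 member that differed between the replicate numbers, by 0.83 for number 2 minus number 1 (limma adjusted p = 0.0299). Its kainate differences at 14 mg/kg were 0.47 for A-CREB and 1.25 for wild type (SE 0.633 each), and neither passed in any setting tried. The 3 probe sets below the limit for testing, a mean near a signal of 66.8, had ranges of kainate and saline arrays that overlapped: Nr4a3 1421079_at lay between 10.4 and 81.4, Nr4a2 1433423_at between 3.79 and 23.7, and Nr4a2 1433422_at between 3.76 and 78.2. In the last of these the highest kainate array was at 24.6, while wild-type saline had 78.2 and 45.2, and A-CREB saline 26.9 and 15.4, so that within wild type the saline arrays were higher. At such signals MAS5 values are close to background, and no test was made.

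The A-CREB response was set beside the wild-type response at the matched dose of 14 mg/kg, as the difference of the 2 responses. For none of the 7 probe sets did it pass (limma adjusted p = 1 for each), and 0% of all tested probe sets passed. Unadjusted p was under 0.05 for 0 of 7 members and for 159 of all 27022. With the block it was under 0.05 for 821 of all, so the fit without the block is the more cautious one. For Nr4a1 the A-CREB response was larger by 0.44 (95% interval -0.62 to 1.5). For Nr4a2 it was larger by 0.19 (-0.71 to 1.09) in 1455034_at, 0.26 (-0.94 to 1.45) in 1447863_s_at, 0.44 (-0.66 to 1.54) in 1450749_a_at and 0.36 (-0.91 to 1.64) in 1450750_a_at. For Nr4a3 1438796_at it was larger by 0.14 (-0.51 to 0.80), the narrowest interval, and for the dim 1421080_at it was smaller, at -0.77 (-2.79 to 1.24). For the 6 bright probe sets the A-CREB response was thus 109% to 126% of the wild-type response on the log2 scale. These intervals show what 2 pools a group could resolve without the block. For 1438796_at they leave room for an A-CREB response smaller by up to 0.51 or larger by up to 0.80. For the others they leave room for wider differences. With the block the intervals were narrower, at -0.416 to 0.702 for 1438796_at, -0.475 to 1.355 for Nr4a1 and -0.485 to 0.868 for 1455034_at. They were -0.773 to 1.282 for 1447863_s_at, -0.484 to 1.359 for 1450749_a_at, -0.576 to 1.303 for 1450750_a_at and -2.042 to 0.495 for 1421080_at. All of them include 0.

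The difference was not the same within each replicate number. Among arrays numbered 1 it was 0.79 for Nr4a1, -0.08 for Nr4a2 1455034_at and -0.18 for Nr4a3 1438796_at, and among arrays numbered 2 it was 0.09, 0.46 and 0.47. For the other Nr4a2 probe sets it ran from -0.72 to -0.30 among arrays numbered 1 and from 1.09 to 1.23 among those numbered 2. Each of these values rests on 4 arrays with no replicate, and for 5 of the 6 bright probe sets the sign differs between the numbers. On wild-type kainate replicate 2, the array with the high striatum markers, Nr4a2 1447863_s_at was at 5104, against 8090.2 on replicate 1. Without that array the difference of 1447863_s_at was -0.08 and that of Nr4a3 1438796_at was 0.00, while Nr4a1 stayed at 0.49. The wild-type responses without it were 1.66 for Nr4a1, 1.95 for Nr4a2 1455034_at and 1.80 for Nr4a3 1438796_at.

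**Figure D3:**
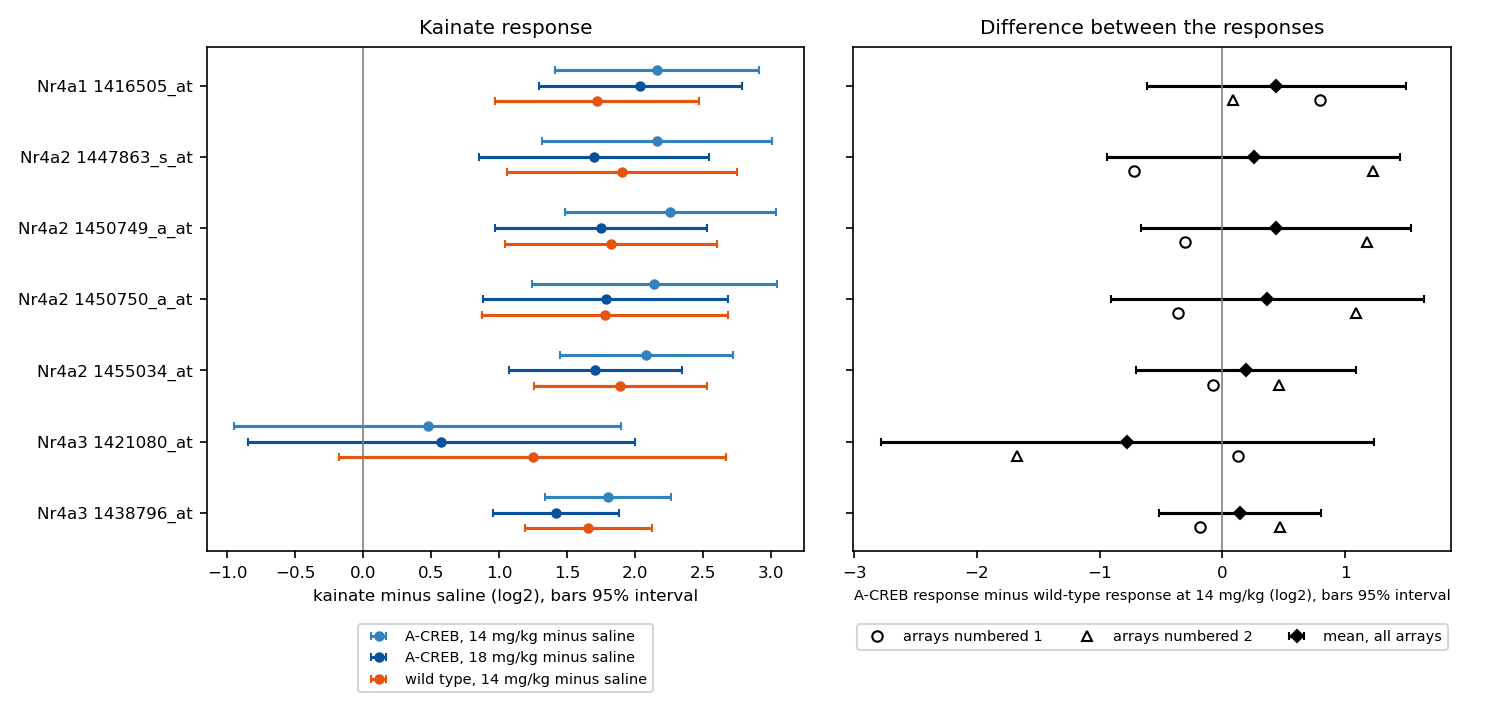
Left, kainate minus saline on the log2 scale for each tested Nr4a probe set in A-CREB mice at 14 and 18 mg/kg and in wild-type mice at 14 mg/kg, with 95% intervals of the limma fit. Right, the A-CREB response minus the wild-type response at 14 mg/kg with its 95% interval, and the same within arrays numbered 1 (circles) and numbered 2 (triangles). The responses of 6 probe sets lie well above 0, and all 7 intervals of the difference include 0.

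Without kainate the Nr4a signals of A-CREB and wild-type hippocampus overlapped for all 7 tested probe sets. The share of all probe sets that overlapped was not counted, and with 2 arrays a group an overlap cannot show that the genotypes are alike. The A-CREB minus wild-type difference after saline was -0.23 (95% interval -0.97 to 0.52) for Nr4a1, -0.04 (-0.68 to 0.60) for Nr4a2 1455034_at and 0.13 (-0.34 to 0.59) for Nr4a3 1438796_at. The other Nr4a2 probe sets lay between -0.24 and -0.05, and Nr4a3 1421080_at at 0.23. None of the 7 passed in limma (adjusted p = 1), as 0% of all probe sets did, and 0 of 7 members had an unadjusted p under 0.05, against 350 probe sets in all. With the block 1369 probe sets in all had an unadjusted p under 0.05. After 14 mg/kg kainate the A-CREB minus wild-type difference was 0.21 (-0.53 to 0.96) for Nr4a1, 0.15 (-0.48 to 0.79) for Nr4a2 1455034_at and 0.27 (-0.20 to 0.73) for Nr4a3 1438796_at. For the last 2, and for Nr4a2 1450750_a_at, both A-CREB arrays were above both wild-type arrays, while for the other tested probe sets the arrays overlapped. How many of all probe sets were ordered in this way was not counted. With 2 arrays a group such an order cannot by itself show a difference. No member passed (0 of 7, and 0% of all probe sets, with 0 and 280 at an unadjusted p under 0.05). With the block the count over all probe sets at that p was 1125.

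The higher kainate dose, given to A-CREB mice alone, did not come with a higher Nr4a signal that passed the test. The differences between 18 and 14 mg/kg were -0.12 (95% interval -0.87 to 0.63) for Nr4a1, -0.37 (-1.01 to 0.26) for Nr4a2 1455034_at and -0.38 (-0.84 to 0.09) for Nr4a3 1438796_at. The other bright Nr4a2 probe sets were between -0.51 and -0.36, and 0 of 7 members and 0% of all probe sets passed in limma, with 0 and 129 at an unadjusted p under 0.05. With the block 677 of all probe sets were under that p. These values rest on 2 unlike arrays at 18 mg/kg. Replicate 2 was at 1.45 times replicate 1 for Nr4a3 1438796_at and at 1.93 to 2.61 times for Nr4a1 and the bright Nr4a2 probe sets. Without replicate 1, which leaves 1 array at 18 mg/kg, the dose difference was 0.42 for Nr4a1, 0.14 for Nr4a2 1455034_at and -0.11 for Nr4a3 1438796_at. The response at 18 mg/kg was then 2.57, 2.22 and 1.69. The 2 A-CREB responses share their saline arrays. The spread was not limited to the Nr4a genes: over 32 CREB target genes the median change of an array against its own saline mean was 1.52 on replicate 1 and 2.33 on replicate 2 at 18 mg/kg, against 1.84 and 1.96 at 14 mg/kg. Npas4, an activity-dependent transcription factor, was at 8526 and 14293 at 18 mg/kg, and Fos, a subunit of AP-1, at 15194 and 16466.

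The 6 bright Nr4a probe sets varied together over the 10 arrays, with Pearson's r from 0.932 to 0.99 between pairs, and the dim 1421080_at at 0.514 to 0.628 with the others. These are descriptions with no p, since the arrays fall into a kainate and a saline set and all probe sets were read on the same arrays. The genes with the most similar pattern, among 13215, were for Nr4a1 the stress-response genes Gadd45b (r = 0.989) and Gadd45g (0.978), the AP-1 subunit Fosb (0.988), Rgs2, a regulator of G-protein signalling (0.978), and the immediate-early gene Ier2 (0.977). For Nr4a2 1455034_at they were Mest, an imprinted gene of the hydrolase family (0.998), Rgs2 (0.991), the F-box gene Fbxo33 (0.99), Ptgs2, the inducible prostaglandin synthase (0.989), and the Ras-like gene Rasl11a (0.988). For Nr4a3 1438796_at they were Rgs2 (0.992), the neurotrophin Bdnf (0.991), Ptgs2 (0.991), the prohormone convertase Pcsk1 (0.988) and Errfi1, an inhibitor of the EGF receptor (0.987). Rgs2 stood in the top 5 of all 3 genes, with A-CREB responses of 2.38 at 14 mg/kg and 2.10 at 18 mg/kg, and a wild-type response of 2.05. Mest, at the top for Nr4a2, had responses of 1.96, 1.62 and 1.65 in the same order. After centring each replicate number the first 2 ranks of Nr4a2 were again Mest (0.997) and Rgs2 (0.995).

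Other CREB target genes, listed with earlier results of these data known, are set beside these responses. Of 32 such genes, all tested, 10 rose with 14 mg/kg and 7 with 18 mg/kg in A-CREB mice, and 7 rose in wild-type mice. Of all probe sets 0.174%, 0.0703% and 0.0629% rose, in that order. With the block these counts were 21, 16 and 16, against 0.677%, 0.352% and 0.315% of all. None fell. Their median response was 2.03 in A-CREB at 14 mg/kg and 1.66 in wild type, against -0.03 and -0.04 over all probe sets. The Nr4a medians over the 7 tested probe sets, 2.14 and 1.78, are near these, but 4 of the 7 read Nr4a2, while the list has 1 probe set a gene. With 1 probe set a gene, Nr4a1, Nr4a2 and Nr4a3 responded by 2.16, 2.08 and 1.80 in A-CREB at 14 mg/kg. In wild type they responded by 1.72, 1.89 and 1.66. Npas4 had the largest response of the list, 6.33 (SE 0.272, limma adjusted p = 3.33e-05) in A-CREB and 5.53 (SE 0.272, adjusted p = 0.000115) in wild type, and Fos had 3.53 (SE 0.224, adjusted p = 0.000608) and 3.26 (SE 0.224, adjusted p = 0.00083). The difference between the genotypes' responses had a median of 0.21 over the list and passed for 0 of 32. Of the 30 RefSeq upstream windows found for 22 of the listed genes, 18 (60%) held a CRE core and 0 held 4 or more.

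**Figure D4:**
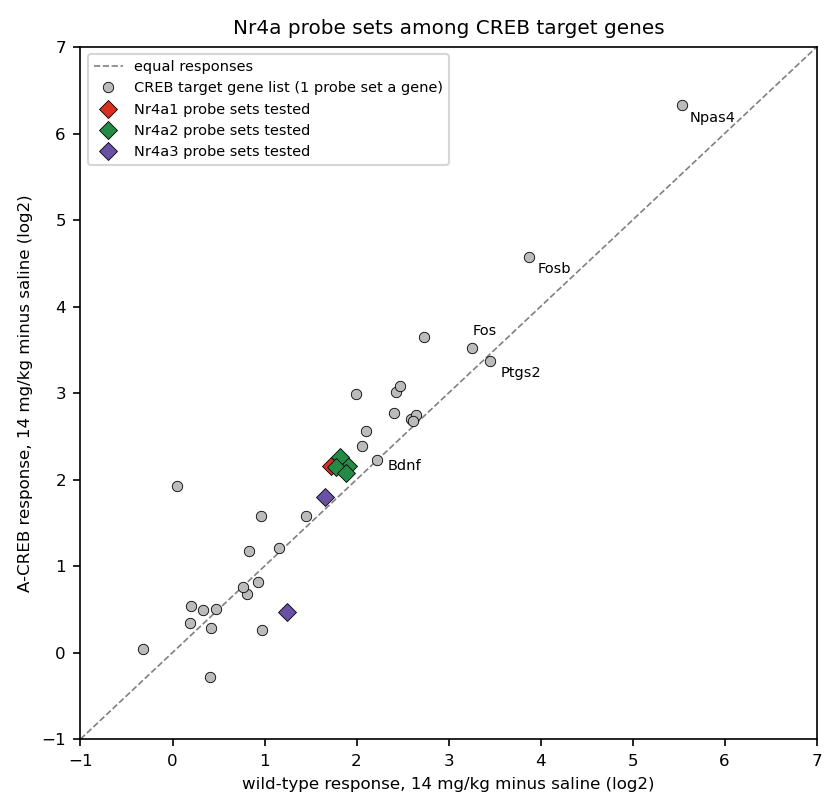
Response to 14 mg/kg kainate in A-CREB mice (vertical axis) against that in wild-type mice (horizontal axis), both as log2 kainate minus saline, for 32 CREB target genes (grey circles) and the 7 tested Nr4a probe sets (diamonds), with a dashed line of equal responses. The 6 bright Nr4a probe sets lie just above the line, at 1.66 to 1.91 in wild type and 1.80 to 2.26 in A-CREB mice, and the dim Nr4a3 probe set lies below it.

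The regulators and partners of the family were measured on the same arrays. Of 18 CREB and MEF2 regulators 17 were tested, and 0 passed in any of the 8 comparisons. Creb1 itself, the gene of CREB, responded to 14 mg/kg kainate by -0.11 in A-CREB and -0.09 in wild-type mice (SE 0.214 each), and an A-CREB minus wild-type difference after saline of 0.10 (SE 0.214). Whether its probes match the A-CREB transgene was not tested. With the block Mef2c, a MEF2 factor, fell in wild type by 0.80 (adjusted p = 0.0398). In A-CREB mice at 14 mg/kg its response was -0.09 (adjusted p = 0.906 with the block). Crem, a CREB-family repressor gene, rose with the block in A-CREB mice at 14 mg/kg by 1.17 (adjusted p = 0.032). Its wild-type response of 0.83 did not pass (adjusted p = 0.253 with the block). The mean response of Crem, 0.998, passed only with the block (limma adjusted p = 0.0744, and 0.00557 with the block). The difference between the genotypes' responses, 0.71 for Mef2c and 0.34 for Crem, passed for neither, with or without the block. Of 11 receptor partners and coregulators, among them the retinoid X receptors that pair with Nr4a1 and Nr4a2, 9 were tested and 0 passed with or without the block. At 14 mg/kg the kainate differences of Rxra, Rxrb and Rxrg ran from -0.21 to 0.09 in A-CREB and from -0.27 to 0.92 in wild-type mice.

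Of 16 genes described in other systems as regulated by Nr4a proteins, 14 were tested. With 14 mg/kg 2 rose in A-CREB mice (0.174% of all probe sets) and 1 in wild type (0.0629%), and with 18 mg/kg 1 rose in A-CREB mice (0.0703%). Bdnf, a neurotrophin, was the 1 that rose in each, by 2.23 in A-CREB at 14 mg/kg (limma adjusted p = 0.0112), 1.92 at 18 mg/kg (adjusted p = 0.0339) and 2.22 in wild type (adjusted p = 0.0147), and it is also on the CREB target list. Fosl2, an AP-1 subunit, rose by 2.28 in A-CREB at 14 mg/kg (adjusted p = 0.0218), and its wild-type response of 1.46 passed only with the block (0.0296), as did its A-CREB response of 1.90 at 18 mg/kg (adjusted p = 0.0743, and 0.00432 with the block). Th, the rate-limiting enzyme of dopamine synthesis and a target of Nr4a2 in midbrain, had responses of 0.97 and 0.74, which did not pass. The list holds 6 genes of protein folding and stress in the endoplasmic reticulum, a group described as Nr4a-regulated in hippocampal memory: Hspa5, Pdia6, Creld2, Sdf2l1, Xbp1 and Dnajb11. Their responses at 14 mg/kg ran from 0.30 (Xbp1) to 1.13 (Sdf2l1) in A-CREB mice and from -0.34 (Dnajb11) to 0.34 (Hspa5) in wild type, and none passed in either genotype, with or without the block. The mean response of the chaperone Hspa5, 0.56, passed only with the block (limma adjusted p = 0.305, and 0.0392 with the block), and that of the other 5 passed in neither fit. The median response over the 14 was 0.52 in A-CREB at 14 mg/kg and 0.22 in wild type.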

How the data were processed

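Each array held hippocampal RNA of a pool of mice, per the labels' protocols. The deposited values are intensity: linear MAS5 signals, 1 for every probe set, made by the authors with MAS5 in GCOS per the submitters' processing notes (versions: not given in the sources used here). The trimmed mean was 500.002 to 500.003 on every array, so arrays had been scaled alike. Of 45101 probe sets, 64 controls were left out; of the rest 34945 named 1 gene, 932 several and 9160 none. A pseudocount of 22, the 20th percentile of the signals, was added before taking log2, which lowers the fold of dim probe sets. Tested were the 27022 probe sets in the upper 60% by mean. The 5 groups shared 1 linear model (limma 3.58.1, R 4.3.3, with an intensity trend in eBayes and 5 residual degrees of freedom), with two-sided tests and Benjamini-Hochberg adjustment within each of 8 comparisons at a threshold of 0.05. With the replicate number as a block, 4 degrees of freedom remained. Same-numbered arrays deviated together from their group means (correlations of 0.512 to 0.626 over 10 pairs of groups), so the numbers were taken to pair the samples. The fit without the block leaves this pairing out, so its SE include the difference between the numbers. A miss in that fit alone does not show that groups are alike. The fit without the block was first tried on simulated data, for the wild-type response alone. The simulated arrays were independent and had no difference between replicate numbers, so the trial does not cover that feature of these arrays. Of each context list up to 4 genes past the threshold with the smallest p are named, with Creb1 always, and genes of like pattern are the 5 with the highest r; a gene is represented by its tested probe set with the highest mean. Th, the 6 endoplasmic reticulum genes, the retinoid X receptors, Mef2c and Crem were named after their values were seen. The members and lists were chosen with earlier results of these data known. Alternatives concerned the pseudocount, the filter, the normalization, the variance model, array weights, the gene level, the groups fitted, the block and each array in turn.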

Additional observations from a re-analysis of the deposited data

How the results depend on the processing

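The 6 of 7 members called for the mean response at 14 mg/kg were 4 to 6 with an array left out and within 1.5 times in every other setting, and the 4 comparisons of genotype, response and dose called 0 members in every setting. The wild-type count of 1 was 0 with quantile normalization, cyclic loess normalization, no intensity trend or array weights, 2 with only the groups of the comparison, and 0 to 3 with an array left out. The A-CREB count of 2 at 14 mg/kg was 4 with 4 times the pseudocount, the upper 40% by mean or array weights, 1 with quantile or cyclic loess normalization, 0 with no intensity trend, 6 with only its own groups and 0 to 6 with an array left out. At 18 mg/kg the count of 0 rose, with an array left out, only without A-CREB kainate 18 mg/kg replicate 1. That fit leaves 1 array in the group, and calls over all tested probe sets rose in it as well. Calls over all probe sets also moved in other settings. With no intensity trend they were 4 in wild type and 4 in A-CREB at 14 mg/kg. With only the groups of the comparison they were 25 and 61, in that order. With the replicate block the counts were 6 in wild type, 6 in A-CREB at 14 mg/kg and 5 at 18 mg/kg, and the block changed no other member call. Over all 27022 probe sets the block gave 91 calls in wild type, 197 in A-CREB at 14 mg/kg, 97 at 18 mg/kg and 408 for the mean response, and the fit without it gave 17, 47, 19 and 112. The cause was not tested. With probe sets averaged by gene, 2 Nr4a genes passed in A-CREB at 14 mg/kg and 0 in wild type. At dim signals the precision is limited by background. In 25 fits a value changed sign, none of them past the threshold, and all but 1 with an array left out. The exception was the dose difference of Nr4a3 1421080_at, at 0.00 with cyclic loess normalization. With an array left out, the ranges that crossed 0 were as follows. For the A-CREB response at 14 mg/kg, Nr4a3 1421080_at ran from -0.025 to 0.973. For the response difference, Nr4a2 1447863_s_at ran from -0.076 to 0.586 and 1450750_a_at from -0.005 to 0.732. For A-CREB minus wild type after saline, Nr4a1 ran from -0.499 to 0.048, and the Nr4a2 probe sets 1447863_s_at from -0.348 to 0.254, 1450749_a_at from -0.661 to 0.172, 1450750_a_at from -0.539 to 0.198 and 1455034_at from -0.207 to 0.128, with Nr4a3 1421080_at from -0.358 to 0.808. For A-CREB minus wild type after kainate, 1447863_s_at ran from -0.123 to 0.539, 1450749_a_at from -0.001 to 0.387 and Nr4a3 1421080_at from -1.297 to 0.200. For the dose, Nr4a1 ran from -0.659 to 0.416, 1447863_s_at from -1.016 to 0.083, 1450750_a_at from -1.047 to 0.331, 1455034_at from -0.880 to 0.135 and Nr4a3 1421080_at from -0.364 to 0.562. Where an arm was left with 1 array, that array was assumed to vary like the other groups.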

Other observations

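Of 31 other nuclear receptors on the same arrays, 24 were tested and 0 passed in any of the 8 comparisons (limma). Their median kainate response at 14 mg/kg was -0.06 in A-CREB and -0.15 in wild-type mice, against -0.03 and -0.04 over all probe sets. With the replicate block 1 passed: Nr3c2, the mineralocorticoid receptor, which fell by 0.73 in A-CREB mice at 14 mg/kg (adjusted p = 0.0469), and by 0.28 in wild type without passing (adjusted p = 0.691). The difference between these 2 responses did not pass (-0.45, adjusted p = 1 with and without the block). Nr3c2 was named after its values were seen.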
